A study of Homo sapiens with 6 samples.

Results

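The SR genes encode splicing factors, and 10 of them (SRSF1, SRSF2, SRSF3, SRSF4, SRSF5, SRSF6, SRSF7, SRSF9, SRSF10 and SRSF11) were taken by name from the 58735 genes of the deposited table. All 10 passed the filter on low values, as did 16061 genes in all. The cells were RKO, an established human colorectal carcinoma line, with 3 libraries from controls (Vector) and 3 from cells made to overexpress the long non-coding RNA LOC101927668 (LOC_OE), which the study introduced by lentivirus and kept by puromycin selection as a stable line. No other allele or agent is named for either group, and the sources used here do not say whether a line was 1 clone. The study asked which genes differ between these cells, and counted proteins that act on the splicing of p53 messenger RNA, SRSF3 among them, as possible links between LOC101927668 and p53.

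SR proteins carry a single RNA recognition motif or a pair of them, followed by a tail rich in arginine and serine. The motifs bind enhancer sequences in exons, and the tail recruits the parts of the spliceosome that define the splice sites. SR protein kinases phosphorylate the tail, which lets the protein enter the nucleus and leave the nuclear speckles where it is stored. Several members also go with the spliced message to the cytoplasm. SR proteins hold down their own messages by including an exon with an early stop codon, which sends the transcript to nonsense-mediated decay (NMD), and SRSF1 is known as an oncoprotein in epithelial tumours.

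The promoters of some genes with larger and smaller differences between the groups are shown first, as a description. Whether their letters bear on the differences was not tested. RefSeq (GRCh38.p14) gave a window of 300 bases, from 250 before to 50 after a start, for 9 of the 10 genes, and it gave none for SRSF2. The bases printed lie before the start of the gene in RefSeq and in GENCODE version 29, are read 5′ to 3′ on the strand of the gene, and carry in capitals each match to a searched motif on either strand. SRSF1 had the largest difference between the groups and is shown from chr17:58007347-58007496 on the minus strand. SRSF3 is shown from chr6:36594112-36594352 and SRSF6 from chr20:43457646-43457895, both on the plus strand. SRSF11 had the smallest difference and is shown from chr1:70205446-70205681 on the plus strand.
SRSF1: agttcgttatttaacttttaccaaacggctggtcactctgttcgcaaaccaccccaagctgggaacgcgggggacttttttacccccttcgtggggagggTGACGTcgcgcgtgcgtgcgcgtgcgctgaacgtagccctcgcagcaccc
SRSF3: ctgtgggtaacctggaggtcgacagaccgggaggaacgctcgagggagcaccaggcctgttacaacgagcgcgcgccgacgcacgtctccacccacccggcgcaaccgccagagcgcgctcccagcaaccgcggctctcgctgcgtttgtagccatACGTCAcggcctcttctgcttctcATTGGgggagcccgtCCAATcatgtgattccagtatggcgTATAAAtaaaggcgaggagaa
SRSF6: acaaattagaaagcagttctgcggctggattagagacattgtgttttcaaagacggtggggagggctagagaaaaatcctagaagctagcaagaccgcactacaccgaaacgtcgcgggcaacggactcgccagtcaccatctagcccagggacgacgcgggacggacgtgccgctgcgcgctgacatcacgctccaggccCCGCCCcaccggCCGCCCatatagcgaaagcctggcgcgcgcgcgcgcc
SRSF11: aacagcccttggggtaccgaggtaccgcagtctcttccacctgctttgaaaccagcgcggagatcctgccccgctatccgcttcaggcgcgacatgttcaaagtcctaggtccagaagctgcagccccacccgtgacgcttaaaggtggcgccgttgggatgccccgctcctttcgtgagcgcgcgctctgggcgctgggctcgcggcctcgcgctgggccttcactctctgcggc

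The motifs searched were the CCAAT box (CCAAT), the GC box (GGGCGG), the E-box (CACGTG), the core of the cyclic AMP response element (TGACGT), the ETS core (CCGGAAG) and the TATA box (TATAAA). No matches overlapped in the stretches printed. The cyclic AMP response element core stood in the windows of SRSF1, SRSF3 and SRSF5, 3 of 9, and in 7.98% of all 35116 promoter windows of the same length. The GC box stood in those of SRSF4, SRSF6 and SRSF7, against 45.0% of all windows, and the ETS core in those of SRSF4 and SRSF5, against 10.3%. The CCAAT box (34.6% of all windows) and the TATA box (11.5%) each stood in that of SRSF3 alone. There the TATA box began 30 bases before the start in RefSeq, and the stretch printed ends short of that start, where the gene begins in GENCODE. The E-box stood in 0 of the 9 windows and in 7.26% of all windows. A match describes letters, not a bound site.

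The reads on genes came to between 15008842 and 18410231 per library, and the introduced RNA, LOC101927668, was all but absent from Vector (1, 1 and 0 reads) and present in each LOC_OE library (231, 270 and 276 reads). The libraries differed in other ways that went with the groups. Mitochondrial genes took 4.40% to 4.89% of the reads in Vector and 5.63% to 6.05% in LOC_OE, and between 25023 and 25557 genes were above 0 in Vector against 22785 to 23432 in LOC_OE. LOC_OE replicate 1 stood apart, with Pearson correlations of 0.967 and 0.962 across genes to LOC_OE replicates 2 and 3, which correlated at 0.982 with each other. Of 10 markers of colon epithelium 4 (EPCAM, KRT8, KRT18 and CDX2) had a mean FPKM of at least 1, while CDH1 and CDX1 were listed at 0 in every library. The summed FPKM of the 10 colon markers was 39.4 to 41.5 in Vector and 48.4 to 89.6 in LOC_OE, with the highest in LOC_OE replicate 1. Most of this difference lay in KRT18, with 19.8, 18.4 and 18.1 FPKM in Vector and 67.5, 25.3 and 25.1 in LOC_OE. KRT8 had 11.8, 11.7 and 11.9 in Vector and 9.02, 13.3 and 13.7 in LOC_OE. Of the 4 markers named above, 0 passed the adjusted p threshold used below. No marker of fibroblasts (6 genes), immune cells (5) or endothelium (4) was above 0.207 FPKM in any library. The part of these differences in the results below was not tested.

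FPKM, the fragments on a gene per kilobase of its exons, scaled for library size, is a level per length. The length is that of all annotated exons merged, so the order between genes depends on the annotation. SRSF9 and SRSF10, for instance, had similar reads in Vector, 2279 to 2323 and 2204 to 2391, over 3744 and 10277 bases. In Vector the SR genes lay within a narrow band. SRSF9, the closest relative of SRSF1, was highest at 33.01 ± 0.362 FPKM (SD, n = 3). Then came SRSF5 at 25.9 ± 1.26, SRSF6 at 23.7 ± 1.75, SRSF3 at 23.6 ± 0.965, SRSF11 at 23.1 ± 1.56, SRSF2 at 22.1 ± 1.68 and SRSF7 at 20.7 ± 1.15. Each neighbour in this run overlapped the next over the libraries, so its order is not fixed. A gap without overlap separated SRSF7 from SRSF10 at 12.1 ± 0.560, SRSF1 at 11.5 ± 1.48 and SRSF4 at 10.3 ± 0.567, which overlapped their neighbours in turn. In LOC_OE the order was led by SRSF2 at 60.0 ± 23.7, SRSF3 at 48.7 ± 22.3 and SRSF6 at 46.9 ± 11.5, each with replicate 1 highest. SRSF4 was the lowest, at 14.9 ± 3.58, but overlapped SRSF10 at 18.6 ± 2.64, and the 1 pair of neighbours without overlap in LOC_OE was SRSF11, at 24.9 ± 1.42, and SRSF10.

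**Figure D1:**
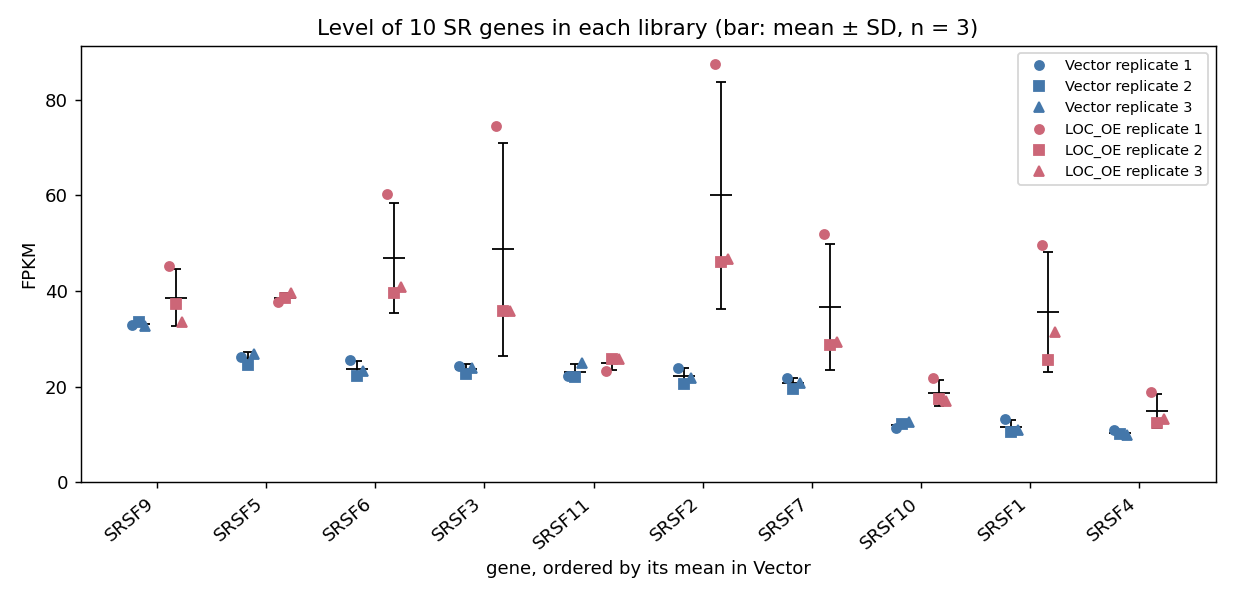
FPKM (vertical axis, linear) of the 10 SR genes (horizontal axis) in each of the 3 Vector and 3 LOC_OE libraries, one symbol per replicate number, with bars for the mean and SD. The Vector libraries of a gene sit close together, whereas LOC_OE replicate 1 lies far above the other LOC_OE libraries for SRSF1, SRSF2, SRSF3, SRSF6 and SRSF7 but not for SRSF5 or SRSF11.

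The mean of each of the 10 SR genes was higher in LOC_OE than in Vector, by ratios from 1.08 for SRSF11 to 3.10 for SRSF1. SRSF1, SRSF2, SRSF6, SRSF5 and SRSF10 rose at a Benjamini-Hochberg adjusted p-value under 0.05 from limma, which is 5 of 10 genes where 10.7% of all tested genes passed in this direction. At a fold change of at least 1.5 as well, SRSF1, SRSF2 and SRSF6 were called, 3 of 10, where 4.63% of all genes were called higher. The fitted log2 fold change was above 0 for all 10, but for SRSF9 and SRSF11 it was below 0 after scaling every library to 1 total of FPKM (same sum of FPKM below) or after quantile normalization. The median log2 fold change was 0.66 over the 10 genes and 0.019 over all genes tested. For 9 of the 10, every LOC_OE library lay above every Vector library, as for 24.4% of all genes tested. No SR gene fell by limma, where 9.74% of all tested genes did, and 0 of 10 were lower by limma voom or at an unadjusted p under 0.05. These are bulk libraries, so less or more RNA per cell and a different share of cells cannot be told apart.

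LOC_OE replicate 1 held the largest values of most members. The median of the 10 genes over the Vector mean, on the log2(FPKM + 1) scale, reached 1.05 in LOC_OE replicate 1 but only 0.52 and 0.53 in the other two LOC_OE libraries, while the median of all tested genes was between 0.011 and 0.032. In the fit without that library 8 of 10 genes rose, all but SRSF9 and SRSF11, against 19.8% of all genes. The same 3 genes, SRSF1, SRSF2 and SRSF6, then passed both thresholds, beside 704 of all 15651 genes tested in this fit called higher. Leaving out a Vector library lowered the counts, to 1 gene past the adjusted p threshold without replicate 1, SRSF1, and to 0 without replicate 2 or 3. Over all genes and in either direction, 3277 passed this threshold with every library. That count was 574 without Vector replicate 1, 249 without replicate 2 and 391 without replicate 3.

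**Figure D2:**
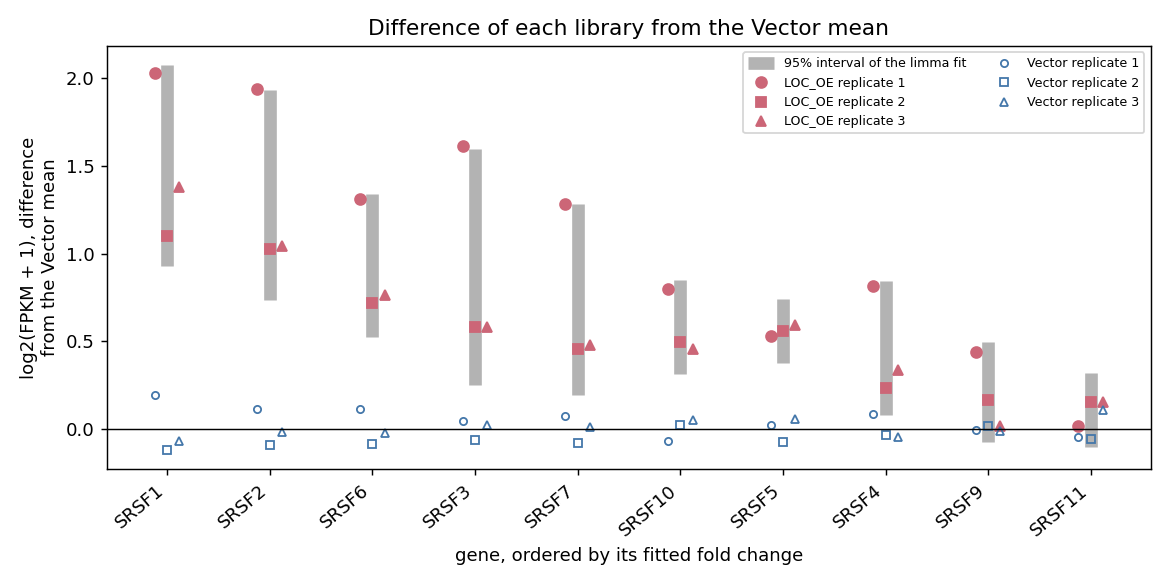
Difference of each library from the Vector mean (vertical axis, log2(FPKM + 1)) for the 10 SR genes, ordered by fitted fold change. Red filled symbols are LOC_OE libraries, blue open symbols Vector libraries, and grey bars the 95% interval of the limma fit; the bars of SRSF9 and SRSF11 reach below 0, and both genes had fitted values below 0 with the same sum of FPKM and with quantile normalization.

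Of the members with a pair of RNA recognition motifs, SRSF1 differed most. SRSF1 (ENSG00000136450, chromosome 17 from 58003360 to 58007346 on the minus strand of GRCh38) binds exonic enhancers and also acts in translation and decay. Its FPKM was 13.2, 10.4 and 10.8 in Vector replicates 1 to 3 and 49.6, 25.6 and 31.4 in the LOC_OE replicates. The groups did not overlap, and the LOC_OE libraries stood at 4.33, 2.23 and 2.73 times the Vector mean. Its log2 fold change was 1.504 (SE 0.24, adjusted p = 0.0117 from limma), and 1.24 (SE 0.12, adjusted p = 0.00180) without LOC_OE replicate 1. It passed in 4 of 6 fits with 1 library removed, and had adjusted p-values of 0.0638 and 0.0583 from limma without Vector replicates 2 and 3.
SRSF6 (ENSG00000124193, chromosome 20 from 43457928 to 43464247 on the plus strand) is a further enhancer-binding member. It had 25.6, 22.2 and 23.2 FPKM in Vector and 60.2, 39.5 and 40.9 in LOC_OE, again with no overlap and with replicate 1 highest. It rose by 0.93 on the log2 scale (SE 0.17, adjusted p = 0.0163 from limma) and 0.74 (adjusted p = 0.00150) without LOC_OE replicate 1, but the adjusted p was between 0.0588 and 0.0812 when a Vector library was left out.
SRSF5, whose message is known to respond to growth signals, had 26.2, 24.5 and 26.9 FPKM in Vector and 37.7, 38.5 and 39.5 in LOC_OE. Here the 3 LOC_OE libraries lay within a narrow range and replicate 1 was the lowest of them. SRSF5 differed by 0.56 on the log2 scale, with the smallest standard error of the 10 genes (SE 0.076, adjusted p = 0.00851 from limma), and it was 0.57 without LOC_OE replicate 1. Its adjusted p-value was 0.0658 with the same sum of FPKM, 0.0884 with quantile normalization, and between 0.0501 and 0.0638 without a Vector library.
SRSF4, a member with a long tail, had 10.997, 10.1 and 9.97 FPKM in Vector and 18.9, 12.3 and 13.3 in LOC_OE. The groups did not overlap, yet the log2 fold change of 0.46 did not pass (95% interval 0.077 to 0.84, adjusted p = 0.0888 from limma). Without LOC_OE replicate 1 it was 0.28 and passed (adjusted p = 0.0213).
SRSF9 had 32.9, 33.41 and 32.7 FPKM in Vector and 45.1, 37.2 and 33.45 in LOC_OE. The highest Vector library and the lowest LOC_OE library were almost equal. The log2 fold change was 0.21 (95% interval −0.077 to 0.49, adjusted p = 0.255 from limma), and −0.047 with the same sum of FPKM and −0.053 with quantile normalization. Without LOC_OE replicate 1 it was 0.093 (adjusted p = 0.249 from limma).

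Of the members with a single RNA recognition motif, SRSF2 (ENSG00000161547, chromosome 17 from 76734115 to 76737374 on the minus strand), a marker protein of nuclear speckles, had 23.9, 20.6 and 21.7 FPKM in Vector and 87.3, 46.0 and 46.6 in LOC_OE. Replicates 2 and 3 were nearly equal at 2.08 and 2.11 times the Vector mean and replicate 1 was at 3.95 times. SRSF2 rose by 1.34 on the log2 scale (SE 0.25, adjusted p = 0.0173 from limma), and by 1.04 (SE 0.069, adjusted p = 0.000832) without LOC_OE replicate 1. Leaving out a Vector library took the adjusted p to between 0.0631 and 0.0808.
SRSF3 (ENSG00000112081, chromosome 6 from 36594353 to 36605600 on the plus strand) is the smallest SR protein, and with SRSF7 it hands spliced messages to the export receptor NXF1. SRSF3 had 24.4, 22.6 and 23.98 FPKM in the Vector libraries, against 74.4, 35.84 and 35.82 in those of LOC_OE, without overlap. LOC_OE replicate 1 stood at 3.15 times the Vector mean, and replicates 2 and 3 both at 1.52 times. The log2 fold change of 0.93 had a 95% interval of 0.25 to 1.60 and an adjusted p of 0.0621 from limma. Without LOC_OE replicate 1 the value was smaller, 0.58, and passed, with a standard error of 0.050 against 0.28 with all libraries.
SRSF7, which also carries a zinc knuckle, had 21.8, 19.5 and 20.8 FPKM in Vector and 51.8, 28.8 and 29.3 in LOC_OE. It behaved like SRSF3: its log2 fold change was 0.74 (95% interval 0.20 to 1.28, adjusted p = 0.0641 from limma) with all libraries and 0.47 (adjusted p = 0.00310) without LOC_OE replicate 1. Both SRSF3 and SRSF7 passed with quantile normalization (adjusted p of 0.0474 and 0.0395) and with limma voom on the recovered reads (0.0337 and 0.0364). SRSF3 and SRSF7 had the highest Pearson correlation of log2(FPKM + 1) between any 2 members, 0.999 over the 6 libraries, a description that shares the groups and replicate 1.

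SRSF10 represses splicing when it loses its phosphates, as in mitosis and after heat shock. It had 11.4, 12.2 and 12.5 FPKM in Vector and 21.7, 17.4 and 16.9 in LOC_OE, with no overlap. Its log2 fold change was 0.58 (SE 0.11, adjusted p = 0.0188 from limma), just short of a fold change of 1.5 on the log2(FPKM + 1) scale. The ratio of its mean FPKM was 1.55, and with 0.1 added in place of 1 the log2 fold change was 0.62. Without LOC_OE replicate 1 the log2 fold change was 0.47 (adjusted p = 0.00274 from limma). The adjusted p was between 0.0724 and 0.0863 without a Vector library.
SRSF11 (ENSG00000116754, chromosome 1 from 70205682 to 70253052 on the plus strand) is a more distant relative that acts beside the core members. It had 22.2, 22.1 and 24.9 FPKM in Vector and 23.3, 25.7 and 25.7 in LOC_OE. SRSF11 was the 1 member whose groups overlapped. The log2 fold change was 0.11 (95% interval −0.10 to 0.32, adjusted p = 0.418 from limma), and −0.14 with the same sum of FPKM and −0.076 with quantile normalization. Without LOC_OE replicate 1 it was 0.15 (adjusted p = 0.112 from limma). The interval leaves room for a modest difference in either direction.

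LOC_OE replicate 1 was the highest LOC_OE library for 8 of the 10 genes, all but SRSF5 and SRSF11. It lay over 0.5 on the log2 scale from the mean of replicates 2 and 3 for 6 genes (SRSF1, SRSF2, SRSF3, SRSF4, SRSF6 and SRSF7), and 25.1% of all tested genes had a gap of that size in either direction. The gap was 1.03 for SRSF3, 0.90 for SRSF2, 0.81 for SRSF7 and 0.79 for SRSF1, and −0.046 for SRSF5 and −0.14 for SRSF11. Replicates 2 and 3 differed from each other by at most 0.15, apart from SRSF1 at 0.28.

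The make-up of the family was then compared as the share of each gene in the summed FPKM of the 10, which does not depend on the scale of a library. The sum itself was 213, 198 and 208 FPKM in Vector and 470, 307 and 313 in LOC_OE. That was 0.0758%, 0.0739% and 0.0786% of all FPKM in Vector and 0.130%, 0.0990% and 0.102% in LOC_OE, so the ratio of the means was 1.76 for the sum and 1.45 for its part of all FPKM.
SRSF2 went from 10.7% ± 0.459 of the family in Vector to 16.1% ± 2.10 in LOC_OE, and SRSF1 from 5.56% ± 0.546 to 9.65% ± 1.15 (SD, n = 3). SRSF6 went from 11.5% ± 0.478 to 12.9% ± 0.133. For these 3 genes each LOC_OE library had a larger share than any Vector library. SRSF9 had shares of 15.5%, 16.9% and 15.8% in Vector and 9.60%, 12.1% and 10.7% in LOC_OE. SRSF11 had 10.5%, 11.2% and 11.98% in Vector and 4.95%, 8.39% and 8.23% in LOC_OE. SRSF4 had a smaller share as well, 5.02% ± 0.195 in Vector and 4.10% ± 0.137 in LOC_OE. These 6 differences each had a two-sided exact permutation p of 0.10, the smallest that 3 libraries against 3 can give, so no share could pass 0.05, and shares of 1 sum are not independent of each other.
The share of SRSF3 was higher in LOC_OE replicate 1 alone, at 15.8%, with 11.7% and 11.5% in replicates 2 and 3 and 11.4% to 11.6% in Vector. SRSF5 went the other way, with 8.03% in LOC_OE replicate 1 and between 12.3% and 13.0% in the other 5 libraries. SRSF7 and SRSF10 also overlapped between the groups.

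**Figure D3:**
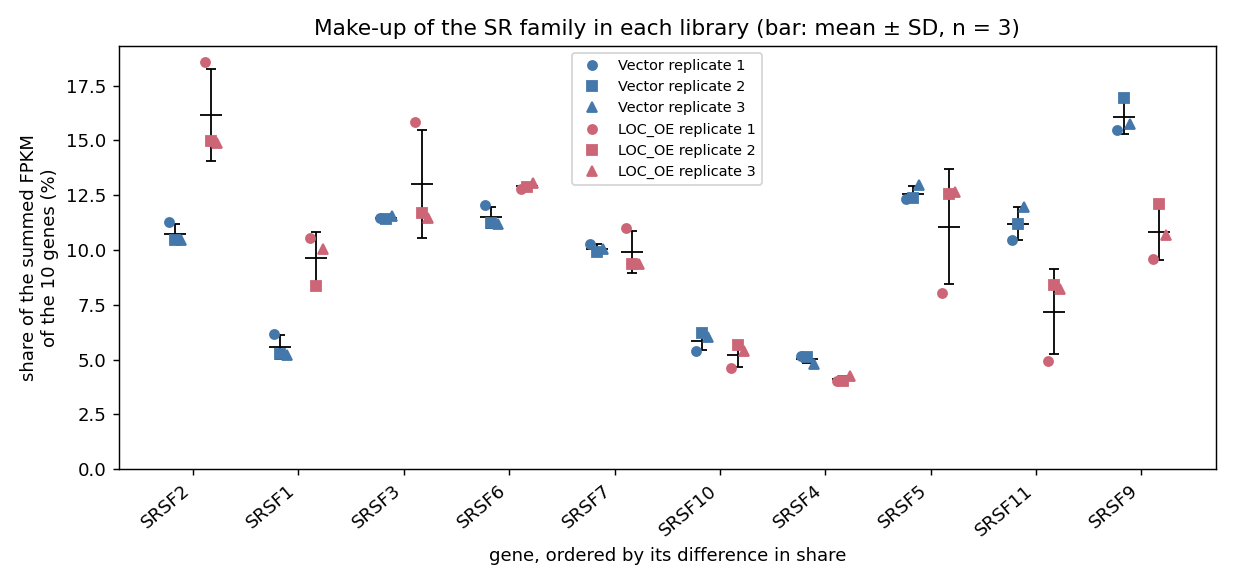
Share of each SR gene in the summed FPKM of the 10 genes (vertical axis, percent) in each library, with the mean and SD of 3 libraries, ordered by the difference between groups. SRSF2, SRSF1 and SRSF6 hold larger shares and SRSF4, SRSF11 and SRSF9 smaller shares in every LOC_OE library.

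Other SR genes and the annotation of the members were examined next. SRSF8, a retrogene copy of SRSF2, rose from 14.9, 12.7 and 13.3 FPKM to 19.6, 22.3 and 20.3 (log2 fold change 0.57, SE 0.093, adjusted p = 0.0125 from limma), and replicate 1 was again not the highest. SRSF8 did not pass with the same sum of FPKM (adjusted p = 0.0827). SRSF12 had at most 1 read in any library. In GENCODE version 29 each of the 10 members has a transcript annotated for NMD, as have 43.7% of the 11303 protein-coding genes tested, and SRSF7 has 6 such transcripts. FPKM sums all transcripts of a gene, so the productive and the NMD forms cannot be told apart here. It also divides by the merged exon length, which runs from 3017 bases for SRSF2 to 10277 for SRSF10 and lowers the FPKM of genes with long, rarely used exons.
No source used here gives the strand setting of the counts. On the opposite strand MFSD11 overlaps SRSF2, with 1.16 to 1.62 FPKM over the libraries, and GATC overlaps SRSF9, with 5.68 to 7.87. AC015813.5 overlaps SRSF1 there, with 0.704 to 1.65 FPKM, and AL353771.1 overlaps SRSF11, with at most 0.236. The processed pseudogenes of SRSF1, SRSF9 and SRSF10 had at most 2 reads in a library, against 646 to 8481 reads on each member.

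Each list of genes that act with the SR proteins had a smaller median log2 fold change than the SR genes, at 0.21 for kinases and phosphatases, 0.39 for transport and 0.23 for NMD and the exon junction complex. Of 32 SR-related genes, whose proteins carry similar tails, 4 rose, 1 fell and 27 did not pass, with a median log2 fold change of 0.15. Over all tested genes 10.7% rose and 9.74% fell. The count of this list that rose is near its share, and the count that fell lies below its share. The lead belonged to TRA2A and TRA2B, sequence-specific partners of the SR proteins. TRA2A had 10.6, 10.4 and 10.6 FPKM in Vector and 26.7, 18.9 and 18.3 in LOC_OE (log2 fold change 0.93, SE 0.15, adjusted p = 0.0117 from limma). TRA2B had 10.4, 9.23 and 9.60 in Vector and 23.5, 15.8 and 16.1 in LOC_OE (log2 fold change 0.84, SE 0.16, adjusted p = 0.0182 from limma). For both, LOC_OE replicate 1 lay above replicates 2 and 3, and without it TRA2A differed by 0.76 and TRA2B by 0.66. Neither passed when a Vector library was left out, with adjusted p between 0.0553 and 0.0644 for TRA2A and between 0.0648 and 0.0858 for TRA2B. BCLAF1, a nuclear RNA-processing factor, also rose (log2 fold change 0.63, adjusted p = 0.0352 from limma), though not with the same sum of FPKM (0.0585). U2SURP rose by 0.35 and RSRP1 fell by 0.48 on the log2 scale (adjusted p of 0.0315 and 0.0153 from limma), and both were named after their values were seen. U2SURP did not pass with the same sum of FPKM (0.456) or quantile normalization (0.123). With the same sum of FPKM, which moved the median of all genes to −0.18, the median of this list was −0.087 and 12 of the 32 genes were above 0, against 27 on the deposited scale.

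Of the 12 tested kinase and phosphatase genes 1 rose, 2 fell and 9 did not pass, counts near the 10.7% and 9.74% of all genes. SRPK1, the cytoplasmic kinase that sends SR proteins to the nucleus, had 31.8, 29.8 and 30.8 FPKM in Vector and 36.2, 39.9 and 38.8 in LOC_OE (log2 fold change 0.31, adjusted p = 0.0398 from limma), a difference that was 0.051 (adjusted p = 0.754) with the same sum of FPKM. CLK1, a nuclear kinase that releases SR proteins from speckles, fell from 12.6, 11.9 and 13.5 FPKM to 8.07, 9.28 and 10.6 (log2 fold change −0.41, adjusted p = 0.0470 from limma). CLK3 fell too (log2 fold change −0.46, adjusted p = 0.0192 from limma), named after its value was seen, and CLK4 stood at −0.32 on the log2 scale (limma adjusted p = 0.0575). CLK1 did not pass without the filter on low values (0.0806), without the variance trend (0.0556), without LOC_OE replicate 2 (0.108) or without any 1 Vector library (0.125 to 0.163). For each of CLK1, CLK3 and CLK4 every LOC_OE library lay below every Vector library, as for 20.9% of all genes. CLK2 lay the other way, with 11.9, 11.3 and 12.3 FPKM in Vector and 13.6, 13.2 and 13.1 in LOC_OE, and did not pass (log2 fold change 0.16, adjusted p = 0.175 from limma); it was named after its values were seen.
Of 5 transport genes 2 rose, beside 10.7% of all genes. NXF1, the export receptor for messages, had 11.1, 10.5 and 11.2 FPKM in Vector and 23.1, 15.6 and 17.03 in LOC_OE (log2 fold change 0.69, SE 0.15, adjusted p = 0.0237 from limma), a difference of 0.53 once LOC_OE replicate 1 was dropped, and its adjusted p was between 0.0819 and 0.102 without a Vector library. BCLAF1, U2SURP, RSRP1, SRPK1, CLK3 and TNPO1 likewise did not pass without any 1 of the Vector libraries. TNPO1, an import receptor named after its value was seen, rose by 0.39 on the log2 scale (adjusted p = 0.0331 from limma), but not with the same sum of FPKM (0.483) or quantile normalization (0.366). TNPO3, the import receptor of SR proteins, had 0.25 (adjusted p = 0.127 from limma), and −0.0031 with the same sum of FPKM and −0.013 with quantile normalization.
Of 15 genes of NMD and the exon junction complex, 1 rose and 0 fell by limma, beside 10.7% and 9.74% of all genes, and 0 were lower by limma voom or at an unadjusted p under 0.05. With the same sum of FPKM 0 rose and 3 fell in this list, beside 716 and 3138 of all 16061 genes tested. NEAT1 and MALAT1, long non-coding RNAs of paraspeckles and speckles, did not pass. NEAT1 had 35.1, 40.8 and 41.3 FPKM in Vector and 15.1, 27.6 and 28.6 in LOC_OE (log2 fold change −0.74, adjusted p = 0.0747 from limma), and −0.46 (adjusted p = 0.00887) without LOC_OE replicate 1. MALAT1 overlapped between the groups (log2 fold change −0.30, adjusted p = 0.207 from limma).

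**Figure D4:**
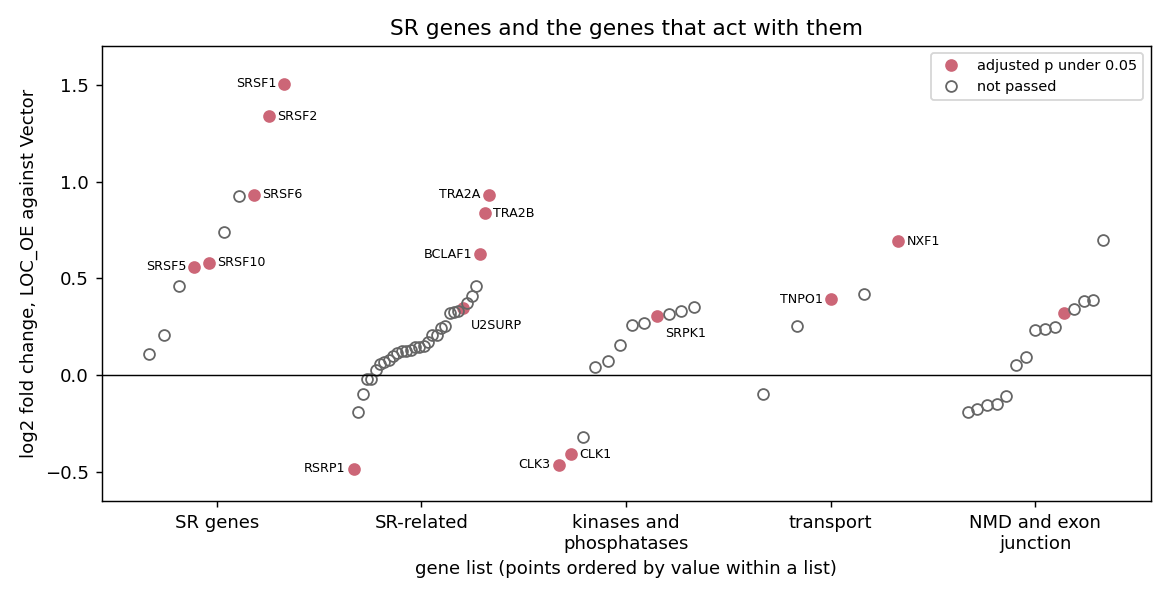
Log2 fold change of LOC_OE against Vector (vertical axis) for the SR genes and for 4 lists of genes that act with them, points ordered by value within a list. Filled points have an adjusted p under 0.05, and those of the SR, SR-related, kinase and transport genes carry their names; the SR genes are all above 0 (SRSF9 and SRSF11 were below it with the same sum of FPKM and with quantile normalization), and CLK1, CLK3 and RSRP1 are the filled points below it.

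The 5 genes most like the mean of the 10 members over the 6 libraries, among 7838 other genes whose mean FPKM reached 5, were PER2 (Pearson r of log2(FPKM + 1) 0.9996), MRS2 (0.9993), TIMELESS (0.9988), TRA2B (0.9987) and MGST1 (0.9986). Each had a LOC_OE replicate 1 above replicates 2 and 3 and all Vector libraries lowest. TIMELESS, a replication fork protein, had 12.4, 11.7 and 12.1 FPKM in Vector and 34.9, 21.6 and 21.6 in LOC_OE. With 6 libraries in 2 groups these values only describe the shape.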

How the data were processed

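RNA of RKO cells was sequenced in 3 Vector and 3 LOC_OE libraries, made with a NEBNext Ultra kit and read as paired ends on a NovaSeq machine. What the authors deposited was a single FPKM table for 58735 genes. The submitters' processing notes name hg38, HISAT2 2.0.4 and StringTie 1.3.0 without their roles, and the counting tool and annotation are not given in the sources used here. All identifiers matched GENCODE version 29, and 0 columns of values were left unused. FPKM times merged exon length, scaled by a library size found from the smallest steps of each library, was a whole number of reads, within 0.01 reads or the rounding of the file, for 100% of values. These reads cover counting error only. The deposited FPKM were already scaled by median-of-ratios size factors, to within rounding, and were used as they stand.

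limma 3.58.1 in R 4.3.3 was fitted to log2(FPKM + 1) of each gene that reached 0.5 FPKM in 3 or more libraries, with a variance trend and Benjamini-Hochberg adjustment. Genes rose or fell at an adjusted p under 0.05, and were called at a fold change of at least 1.5 as well. Fold changes on this scale understate those of low genes. The sample titles number the libraries 1 to 3 in each group without naming separate cultures, so p-values measure the spread between these libraries. Named were the 10 members, SRSF8, SRSF12, 9 fixed partners and the 3 largest called changes in each direction per list, and other genes are said to have been named after their values were seen. The members and lists were chosen with earlier results of these data known. The alternatives were another pseudocount, no filter, same sum of FPKM, quantile normalization, no trend, array weights, a replicate block, limma voom on recovered reads, and leaving out each library. The fit was tested on simulated counts with a dispersion of 0.01 in both groups and no outlying library. That test does not cover a library that stands apart, as LOC_OE replicate 1 did. Some single genes of the lists are not reported here. Figures used matplotlib 3.10.9.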

Additional observations from a re-analysis of the deposited data

How the results depend on the processing

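Scaling, the weight of single libraries and the small number of libraries limit these results. With array weights 10 of 10 SR genes passed the adjusted p threshold instead of 5. Over all 16061 genes, 8086 instead of 3277 then passed in either direction. With limma voom on recovered reads 6 SR genes instead of 3 were called higher, and 1026 instead of 743 of all genes. The SR count called higher was 4 with a pseudocount of 0.1, quantile normalization or array weights, beside 910, 599 and 935 of all genes. The counts called lower became 1 for the SR-related genes with the same sum of FPKM and with limma voom. For kinase, phosphatase and transport genes the count called higher was 0 instead of 1 with the same sum of FPKM, quantile normalization or array weights. Their count called lower was 1 with a pseudocount of 0.1 or limma voom and 2 with the same sum of FPKM, instead of 0. Of all genes, 1044 were called lower with a pseudocount of 0.1, 1339 with limma voom and 1787 with the same sum of FPKM, instead of 896. For NMD and exon junction genes 1 was called higher with quantile normalization or limma voom instead of 0. Over the 6 fits that each dropped 1 library, 0 to 8 SR genes passed the adjusted p threshold and 0 to 4 were called higher. In these fits 0 to 3 SR-related genes and 0 to 1 kinase, phosphatase and transport genes were called higher. The counts over all genes varied widely too, from 249 to 5738 past the adjusted p threshold in either direction and from 101 to 754 called higher. The log2 fold changes that turned below 0 with the same sum of FPKM and with quantile normalization were −0.14 and −0.076 for SRSF11, −0.047 and −0.053 for SRSF9, and −0.0031 and −0.013 for TNPO3. The cause of these changes was not tested. Of all calls, 45.3% were higher, and 12.7% with the same sum of FPKM (261 higher and 1787 lower).

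With the replicate number as a block (replicate block), 4 SR genes passed the adjusted p threshold and 3 were called higher. Over all genes 2065 instead of 3277 passed in either direction. SRSF10 had an adjusted p of 0.0502 from limma in this setting. BCLAF1, U2SURP, SRPK1, CLK1 and TNPO1 also did not pass, with adjusted p between 0.0501 and 0.0879. Same-numbered libraries had correlations of their deviations of 0.11, −0.034 and 0.12, and 4 of 6 libraries correlated best with their own number, so the numbers were not taken as pairs. Differences in share kept within 1 SD in 68 of 70 alternatives, and with recovered reads, not per length, they were 2.80 percentage points for SRSF1 instead of 4.09 and −3.14 for SRSF9 instead of −5.24. That limit still allowed large changes. Without LOC_OE replicate 1 the difference was 0.088 for SRSF3 instead of 1.51, and 0.028 for SRSF5 instead of −1.49. For SRSF7 it was −0.14, but 0.13 without LOC_OE replicate 2 or 3 and 0.32 with recovered reads.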
